A study of Homo sapiens with 54 samples.

Results

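The comparison of the *TRA2B* knockdown (KD) with its control in A549 cells rested on 6 of the 54 RNA-seq libraries of the study, 3 of *TRA2B* KD and 3 of Control KD. Its members were the 16405 genes, of the 55906 names in the A549 table, that reached 1 TPM, a measure of transcript abundance corrected for transcript length and library total, in at least 4 of the 12 A549 libraries. A549 is an established human lung adenocarcinoma line. The cells of all 12 libraries stably expressed Zim3-dCas9 from an EF1a promoter, in populations sorted for a linked mCherry reporter. Zim3-dCas9 is a Cas9 without nuclease activity, fused to a repressor domain, that a guide brings to a promoter to silence it (CRISPRi). Control KD cells received control guides, and *TRA2B* KD cells received guides against *TRA2B*. The other 6 A549 libraries were 3 of *TRA2A* KD and 3 of the double knockdown (*TRA2A/B* DKD). Cells were harvested 5 days after the guides were delivered by lentivirus. NCI-H23, another lung adenocarcinoma line, had the same 4 groups and also carried Zim3-dCas9. LN229 and LN319, both glioma lines, received active Cas9 in place of Zim3-dCas9, with *TRA2B* knockout (KO) or Control KO in cells that also overexpressed luciferase, and were collected after 7 days. The labels do not say whether replicates were separate cultures, so p-values measure only the spread between these libraries.

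*TRA2B* and its paralog *TRA2A* encode SR-like proteins that bind purine-rich enhancer sequences in exons and promote the inclusion of those exons during splicing. Both genes hold a poison exon, whose inclusion directs the transcript to nonsense-mediated decay, and through it TRA2 proteins can hold back their own production and that of each other. TRA2-dependent exons occur in genes of the cell cycle, the centrosome and the DNA damage response. A gene-level TPM is a sum over the transcripts of a gene, so a change in splicing is seen here only where it changes that sum.

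Both guides listed for *TRA2B* KD are shown because they mark where the repressor was placed. The target is in lower case and the adjacent PAM, which dCas9 needs for binding, is in capitals, read on the minus strand, the strand of the *TRA2B* transcript.
guide a: cggagcatttcggctctgagCGG
guide b: ggaggcggtgcggagcatttCGG
Guide a lies at chr3:185937974-185937993 and guide b at chr3:185937984-185938003 of hg38, in the 5′ UTR within exon 1 of *TRA2B*. With the first transcribed base of the RefSeq entry as base 1, guide b covers bases 12 to 31 and guide a bases 22 to 41, and the pair overlaps by 10 bases. Each matched 1 site exactly, with a PAM, in the assembled chromosomes of hg38. The labels do not say which guide each library carried.

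*TRA2B* fell in all 3 *TRA2B* KD libraries. It was at 138, 140.1 and 134 TPM in the Control KD libraries and at 13.5, 14.0 and 12.3 TPM in the *TRA2B* KD libraries. The KD libraries held 9.68% of the control mean, and *TRA2B* ranked 1 of 16405 genes by p. The log2 fold change was -3.27 (SE 0.146) with an adjusted p of 3.24e-06 (limma, Benjamini-Hochberg). Log2 fold changes throughout are on the log2(TPM + 0.1) scale after scaling between libraries, a scale on which changes of genes near 0 TPM appear too small.

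The paralog *TRA2A* did not pass the test. It was at 69.5, 79.4 and 76.3 TPM in Control KD and at 94.9, 96.7 and 101 TPM in *TRA2B* KD, or 129.8% of control. Every *TRA2B* KD library lay above every control, which was so for 8.03% of all genes. The log2 fold change was 0.47 (SE 0.219, adjusted p = 0.377 from limma), and the exact two-sided permutation test gave p = 0.1, the smallest that 3 against 3 allows. In NCI-H23, *TRA2A* was at 102, 107 and 105 TPM in Control KD and at 149.6, 156 and 161 TPM in *TRA2B* KD. There the log2 fold change was 0.46 (SE 0.0682) and the adjusted p was 0.0259 (limma). After *TRA2B* KO in the glioma lines, *TRA2A* rose in LN229 (log2 fold change 0.59, adjusted p = 0.00553, limma). It fell in LN319 (-0.35, adjusted p = 0.00396, limma). *TRA2A* and *TRA2B* together came to 207, 219.5 and 210.2 TPM in the A549 controls and to 108, 111 and 113 TPM in *TRA2B* KD, so the rise in *TRA2A* TPM was smaller than the loss of *TRA2B* TPM.

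No neighbor of *TRA2B* passed the test. Of the 7 other tested genes that start within 500 kb of the *TRA2B* start, 0 had an adjusted p under 0.05 and 0 had an unadjusted p under 0.05 in limma. The nearest, *IGF2BP2*, an mRNA-binding protein whose start lies 113061 bp away, was at 8.14, 7.66 and 28.3 TPM in Control KD and at 11.97, 10.5 and 13.0 TPM in *TRA2B* KD. Its log2 fold change was 0.05 (SE 0.339), and 0.57 without Control KD replicate 3, the one high library. *ETV5*, an ETS transcription factor 172215 bp on the other side, had a log2 fold change of 0.14 (SE 0.116). *MIR548AQ*, a miRNA gene listed at 0 in 3 of the 6 libraries, had a standard error of 2.25 and could not be judged. The remaining 4 were *SENP2* (-0.01), *LIPH* (0.21), *DGKG* (0.27) and *TMEM41A* (-0.19, all as log2 fold changes). *TMEM41A* was at 14.7, 14.3 and 17.1 TPM in Control KD and at 12.8, 10.9 and 14.1 TPM in *TRA2B* KD. Its KD libraries all lay below its controls, as in 11.9% of all genes.

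**Figure D1:**
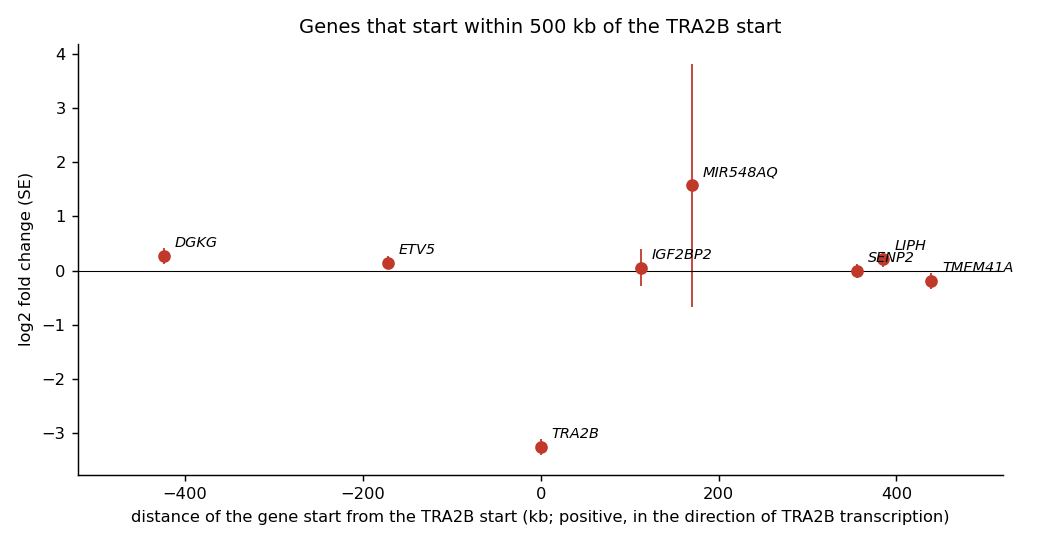
Log2 fold change (TRA2B KD minus Control KD, with its standard error) of each tested gene that starts within 500 kb of the *TRA2B* start, against the distance between the starts in kb. *TRA2B* stands at -3.27, *MIR548AQ* has a standard error of 2.25, and the other 6 genes lie between -0.19 and 0.27.

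Control KD replicate 3 stood apart from the other 11 A549 libraries, with a median correlation of 0.837 to them across genes, where the others had 0.872 to 0.927. Its deviation from the gene means rose with transcript length (Spearman's rho 0.466 across genes), whereas the other libraries had values from -0.322 to 0.0729. It was kept in all main values. The mitochondrial genome gave 17.3% to 21.6% of all TPM in these 6 libraries. The genes that mark A549 cells summed to 20118 to 22611 TPM in Control KD and 22605 to 23092 TPM in *TRA2B* KD, with all 12 of 12 detected at 1 TPM or more, and *CDKN2A*, which A549 cells have lost, was listed at 0 in all 6. Alveolar type II markers summed to 22.9 to 38.1 TPM in Control KD and 16.4 to 19.9 TPM in *TRA2B* KD, mostly from *ABCA3*. Of that list, *SFTPB* and *NKX2-1* stayed below 0.05 TPM, and *NAPSA* was at 0.991 to 3.13 TPM. Fibroblast markers summed to 19.9 to 27.4 and 18.2 to 24.9 TPM, endothelial markers to 0.131 to 1.72 and 0.0425 to 0.277 TPM, and leukocyte markers to 27.7 to 43.7 and 19.1 to 26.5 TPM, the last mostly from *CD68*, with *CD3E*, *CD3D*, *MS4A1* and *TYROBP* listed at 0. In the alveolar, fibroblast, endothelial and leukocyte lists alike, the highest Control KD sum was that of replicate 3. There *PECAM1* was at 1.71 TPM (0.0272 and 0.131 in the other controls), *SLC34A2* at 3.67 TPM (0.222 and 0.405) and *LUM* at 1.83 TPM (0.128 and 0.200). *THY1* and *NAPSA* were lower there than in the other controls. In bulk RNA, fewer cells of a type and less RNA per cell cannot be told apart.

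Few genes passed the thresholds for a difference between *TRA2B* KD and Control KD, and most of those that passed were higher in *TRA2B* KD. Differentially expressed genes (DEGs) were those past a log2 fold change of 1 in size whose adjusted p was below 0.05. There were 38 among the 16405 genes (0.232%), of which 35 (0.213%) were upregulated and 3 (0.0183%) downregulated. Without the minimum fold change, 56 genes (0.341%) passed, 46 (0.280%) up and 10 (0.0610%) down. At an unadjusted p under 0.05 there were 2221 genes, 1206 up and 1015 down, where 820 would be expected with no change in any gene. All 38 DEGs had groups that did not overlap, as did 20.0% of all genes. The KD libraries lay above all controls in 8.03% of all genes and below all controls in 11.9%. The 35 upregulated DEGs had log2 fold changes from 1.01 to 5.92, with a median of 1.92. The count depended on the fit. It was 20 to 67 with 1 library left out at a time, 6 when the spread was estimated from these 6 libraries alone, and 412 when libraries were weighted by their quality, with a weight of 0.0826 for Control KD replicate 3. Without that library there were 43 DEGs, of which 31 were among the 38.

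**Figure D2:**
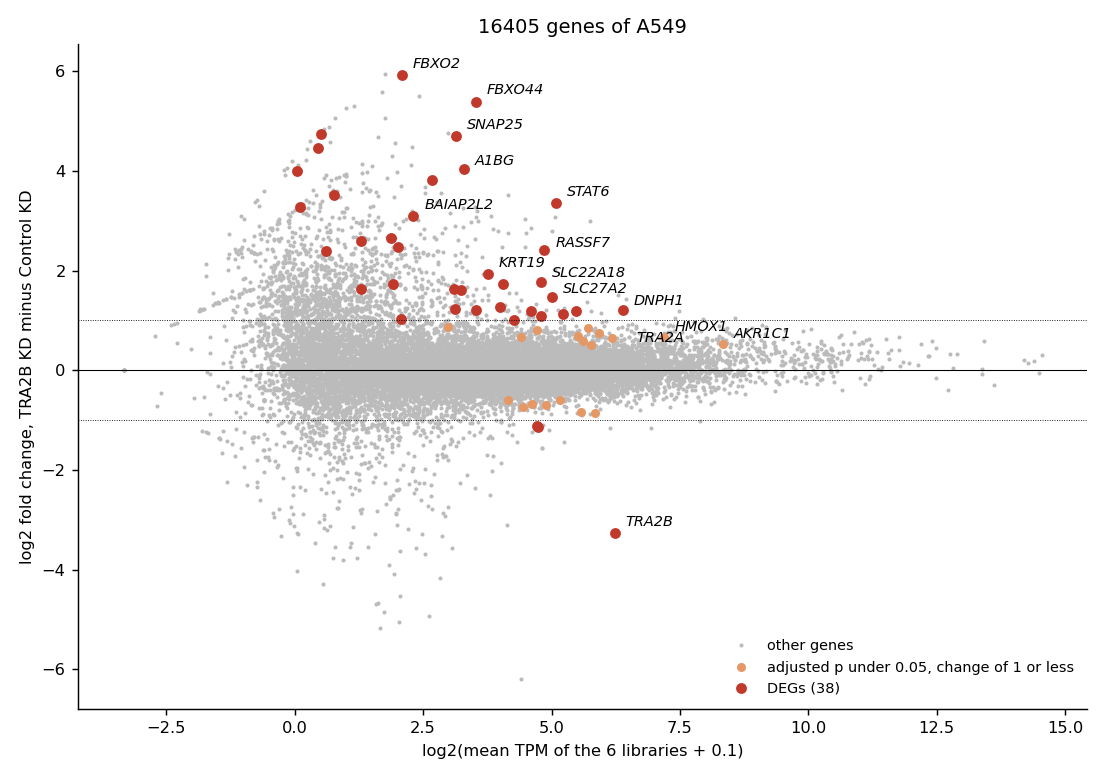
Log2 fold change of *TRA2B* KD minus Control KD against the log2 of the mean TPM (+ 0.1) of the 6 libraries for the 16405 genes of A549, with dotted lines at 1 and -1. The 38 DEGs (red) are mostly above 0, *TRA2B* is the DEG of lowest fold change at -3.27, and genes of low TPM scatter most.

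Among the DEGs, 7 upregulated genes were called in both lung lines, *FBXO2*, *FBXO44*, *A1BG*, *A1BG-AS1*, *SNAP25*, *STAT6* and *HSD17B8*, along with *TRA2B* itself. These 8 were 21.1% of the 38 A549 DEGs and 44.4% of the 18 NCI-H23 DEGs, and 28 of the 38 could be tested in NCI-H23. The 8 became 6 to 10 over the other alternatives and 2, *TRA2B* and *SNAP25*, when the spread was estimated from the 6 A549 libraries alone. In NCI-H23, 0.110% of 16293 genes were DEGs. The lines share no library, but they were normalized in separate tables, so their values are set side by side and were not tested against each other.

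*FBXO2* and *FBXO44*, which encode substrate adaptors of SCF ubiquitin ligases, had the highest fold changes of all DEGs. *FBXO2*, whose protein binds N-glycosylated substrates, lies on the minus strand at chr1:11637018-11655785, and *FBXO44* on the plus strand at chr1:11654375-11663327. Their RefSeq starts lie 22 bp apart and point toward each other, so the first exons overlap on opposite strands, and although the libraries were directional, whether the quantification used the strand is not given in the sources used here. *FBXO44* was at 0.796, 1.24 and 0.0348 TPM in Control KD and at 22.9, 21.7 and 22.1 TPM in *TRA2B* KD. All 3 KD libraries were near the same level, while Control KD replicate 3 was lower than the other controls. The log2 fold change was 5.39 (SE 0.682, adjusted p = 0.00624, limma), and 4.35 without that library. *FBXO2* rose from 0, 0.173 and 0 TPM to 6.48, 8.15 and 10.2 TPM, and with 2 controls listed at 0 the size of its log2 fold change, 5.92 (SE 0.498, adjusted p = 4.79e-04), rests on the pseudocount and ranged from 3.16 to 6.42 over the alternatives. In NCI-H23, *FBXO44* rose from 2.09, 1.57 and 2.57 TPM to 35.4, 35.2 and 35.2 TPM and *FBXO2* from 1.68, 1.71 and 3.49 TPM to 19.4, 15.7 and 16.8 TPM. The NCI-H23 log2 fold changes were 3.94 (SE 0.194) and 2.83 (SE 0.236). Of the genes next to the pair, *MAD2L2*, which overlaps *FBXO44*, averaged 24.4 ± 4.72 TPM in Control KD (mean ± SD, n = 3 here and below) and 32.5 ± 1.82 TPM in *TRA2B* KD, and *FBXO6* was at 5.59 ± 0.753 TPM and 6.11 ± 0.351 TPM, and neither passed the test.

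*STAT6* was the most abundant of the shared genes after knockdown. It encodes the transcription factor of interleukin-4 and interleukin-13 signaling and lies at chr12:57095408-57132139 on the minus strand. It was at 10.2, 7.57 and 3.17 TPM in Control KD and at 64.6, 58.5 and 59.6 TPM in *TRA2B* KD. The KD libraries were closely grouped, and the controls spread more, again with replicate 3 lowest. Its log2 fold change was 3.35 (SE 0.376, adjusted p = 0.00268, limma) and 2.78 without that library. In NCI-H23 it was at 8.79, 9.96 and 9.37 TPM in Control KD and at 66.6, 62.2 and 70.5 TPM in *TRA2B* KD (log2 fold change 2.698, SE 0.0827). The genes that overlap *STAT6* did not pass the test. *NAB2* was at 6.40 ± 1.36 TPM in Control KD and 7.76 ± 1.02 TPM in *TRA2B* KD and *LRP1* at 23.8 ± 15.3 TPM and 15.0 ± 1.03 TPM.

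*SNAP25*, a SNARE protein of regulated exocytosis best known from synapses, lies at chr20:10172395-10308258. It was at 1.02, 0.472 and 0.402 TPM in Control KD and at 15.4, 18.6 and 16.4 TPM in *TRA2B* KD, a step from near the detection filter to a clear level in every KD library. The log2 fold change was 4.70 (SE 0.414, adjusted p = 5.50e-04, limma), and it passed the test under all 18 alternatives. In NCI-H23, *SNAP25* was at 2.16, 2.35 and 2.84 TPM in Control KD and reached 9.06, 11.1 and 8.60 TPM, with a log2 fold change of 1.82 (SE 0.269).

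*A1BG*, which encodes a plasma glycoprotein of the immunoglobulin superfamily, and its antisense RNA gene *A1BG-AS1* form another overlapping pair, on the minus and plus strand of chromosome 19 (chr19:58345178-58353492 and chr19:58347718-58355455). *A1BG* was at 0.478, 2.13 and 1.19 TPM in Control KD and at 17.2, 19.4 and 18.3 TPM in *TRA2B* KD, with a log2 fold change of 4.04 (SE 0.443, adjusted p = 0.00255, limma). *A1BG-AS1* was at 0.0639, 0 and 0 TPM and 3.46, 1.89 and 2.21 TPM. Both rose in every KD library, and since the strand setting is not given, reads of one cannot be told from reads of the other where they overlap. In NCI-H23 *A1BG* was at 1.70, 1.94 and 0.755 TPM in Control KD and 9.08, 8.10 and 7.42 TPM in *TRA2B* KD (log2 fold change 2.39). The neighbors *ZNF497* (-0.19) and *ZSCAN22* (-0.64) had negative log2 fold changes in A549 and did not pass the test.

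*HSD17B8*, a subunit of the ketoacyl reductase of mitochondrial fatty acid synthesis, had the smallest A549 log2 fold change of the 7. It was at 3.81, 4.68 and 6.08 TPM in Control KD and at 15.3, 13.9 and 12.5 TPM in *TRA2B* KD (log2 fold change 1.61, SE 0.224, adjusted p = 0.0110, limma). In NCI-H23 it rose from 1.55, 2.85 and 4.0003 TPM to 11.8, 9.99 and 11.5 TPM (log2 fold change 1.93). Its neighbors *RING1*, *RXRB* and *SLC39A7* had log2 fold changes of 0.22, 0.22 and 0.37 in A549, and none of them passed. Of 37 tested genes within 10 kb of a DEG, 30 had a positive fold change, where 53.6% of all genes did. Of the 37, 6 were DEGs, and the rest had a median of 0.27. *LMNTD2*, which overlaps the DEG *RASSF7*, went from 2.67 ± 0.508 TPM to 6.47 ± 0.979 TPM (1.34, adjusted p = 0.0673, limma). The cause was not tested.

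**Figure D3:**
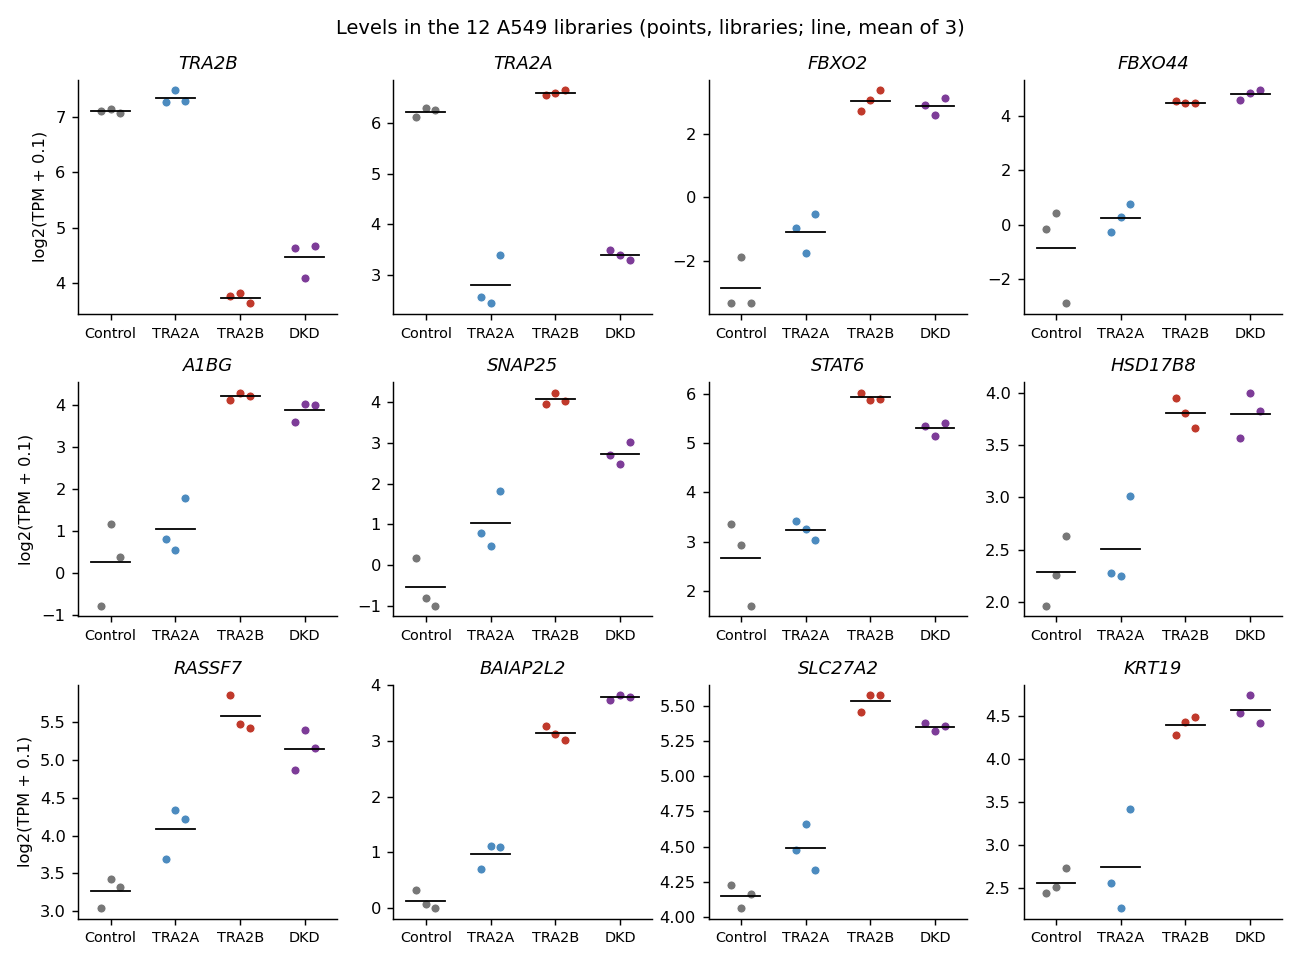
Levels, as log2(TPM + 0.1) of the deposited values, of *TRA2B*, *TRA2A* and 10 upregulated genes in the 12 A549 libraries, by group (points, libraries; line, mean of 3). In *TRA2B* KD all 10 upregulated genes lie above all Control KD libraries, and *FBXO44* and *STAT6* show 1 control below the others.

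The other genes upregulated in A549 included several with low standard errors that were not DEGs in NCI-H23. *RASSF7*, a Ras-association protein linked to microtubules and mitosis, was at 8.13, 10.7 and 9.92 TPM in Control KD and at 57.7, 44.4 and 42.7 TPM in *TRA2B* KD. *BAIAP2L2*, an I-BAR protein that shapes plasma membrane, was at 1.16, 0.946 and 0.899 TPM and 9.55, 8.59 and 7.99 TPM. *SLC27A2*, an acyl-CoA synthetase that takes up long-chain fatty acids, was at 18.6, 16.6 and 17.8 TPM and 43.9, 47.6 and 47.6 TPM. All of these, like *SNAP25*, passed the test under all 18 alternatives, and their log2 fold changes were 2.41 (SE 0.193), 3.09 (SE 0.201) and 1.48 (SE 0.108). In NCI-H23 the log2 fold changes of *RASSF7* and *SLC27A2* were 0.36 (adjusted p = 0.507, limma) and 0.23 (adjusted p = 0.860), and *BAIAP2L2* was below the filter. *KRT19*, an epithelial keratin and an A549 marker, was at 5.37, 5.61 and 6.58 TPM in Control KD and at 19.3, 21.5 and 22.5 TPM in *TRA2B* KD, whereas *KRT7*, *KRT8* and *KRT18*, each between 2577 and 3963 TPM in all 6 libraries, did not pass.

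Further upregulated genes encode enzymes and transporters of varied function. *PLD2*, a phospholipase that makes phosphatidic acid, rose from 7.96 ± 1.85 TPM to 25.1 ± 6.55 TPM (log2 fold change 1.73), and *PITPNM1*, a phosphatidylinositol transfer protein, from 28.6 ± 6.61 TPM to 60.3 ± 2.64 TPM (1.19). *DEGS2*, an enzyme of sphingolipid synthesis, went from 0.950 ± 0.222 TPM to 6.13 ± 1.10 TPM (2.66). *ACO1*, the cytosolic aconitase that doubles as an iron-regulatory RNA-binding protein, went from 13.2 ± 0.302 TPM to 25.1 ± 1.32 TPM (1.01), the smallest rise that met the fold-change threshold. *DNPH1*, a hydrolase of modified deoxynucleotides and the most abundant upregulated DEG, went from 53.4 ± 11.9 TPM to 115 ± 16.8 TPM (1.21). *SLC22A18*, an organic cation transporter of an imprinted cluster, went from 13.2 ± 3.69 TPM to 42.0 ± 11.8 TPM (1.76), and its overlapping antisense gene *SLC22A18AS* from 3.62 ± 1.87 TPM to 13.7 ± 3.69 TPM without passing the test. *PQLC2*, a lysosomal exporter of basic amino acids, went from 4.36 ± 1.31 TPM to 12.6 ± 2.40 TPM (1.62). *ACO1*, *DNPH1* and *SLC22A18* were no longer DEGs without Control KD replicate 3.

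Among the remaining upregulated genes, *EDN2*, an endothelin peptide, was at 0.689, 0.331 and 1.88 TPM in Control KD and 13.0, 13.3 and 8.68 TPM in *TRA2B* KD. *TMEM92*, a membrane protein, rose from 1.21 ± 0.320 TPM to 6.69 ± 1.09 TPM (log2 fold change 2.47). *CDC42EP1*, a Cdc42 effector, rose from 18.4 ± 0.316 TPM to 36.7 ± 1.91 TPM (1.08), with 0.99 without Control KD replicate 3. *RPH3AL*, a Rab effector of exocytosis, rose from 24.5 ± 4.0047 TPM to 50.4 ± 5.22 TPM (1.13), and *LZTS2*, a leucine zipper protein, from 15.4 ± 2.62 TPM to 33.0 ± 2.02 TPM (1.19). *RNF135*, the ubiquitin ligase of the RNA sensor RIG-I, rose from 9.74 ± 1.82 TPM to 22.0 ± 1.72 TPM (1.27). *ZNF185*, a LIM-domain protein of the actin cytoskeleton, had 1.21, and *NIPSNAP3A* had 1.22. In NCI-H23, *LZTS2* (0.98, adjusted p = 0.00597) and *DNPH1* (0.76, adjusted p = 0.0140) rose by less than 1 on the log2 scale in limma. Of the 26 upregulated A549 DEGs tested there, 25 had a positive fold change. Their median was 0.70, beside 0.0031 for all genes tested in NCI-H23.

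Several DEGs have near copies or overlap other genes, and how reads were divided between them was not measured here. *DBET*, a long noncoding RNA of the D4Z4 repeat region of chromosome 4, was at 2.80 ± 0.747 TPM in Control KD and 5.38 ± 0.852 TPM in *TRA2B* KD, and the adjacent *DUX4L8*, a pseudogene of the *DUX4* family, at 0.244 ± 0.259 TPM and 2.94 ± 0.105 TPM. *MSANTD3-TMEFF1*, a readthrough transcript, rose from 1.72 ± 0.330 TPM to 5.59 ± 0.688 TPM, while *MSANTD3*, which it overlaps, was at 46.6 ± 3.78 TPM and 43.2 ± 1.91 TPM. *MIR491*, which lies inside *FOCAD*, was listed at 0 in all controls and at 3.89, 1.60 and 2.49 TPM in *TRA2B* KD, and a gene listed under a clone name, with no match in the annotation, was likewise at 0 in all controls and at 0.444, 2.11 and 3.00 TPM. The 8 DEGs under 5 TPM in both groups were these last 2, *DUX4L8*, *A1BG-AS1*, *SELPLG*, *SLFN5*, *CTD-2619J13.9* and *RP11-76C10.5*. Apart from the pair listed at 0, their log2 fold changes ran from 1.64 to 4.47.

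**Figure D4:**
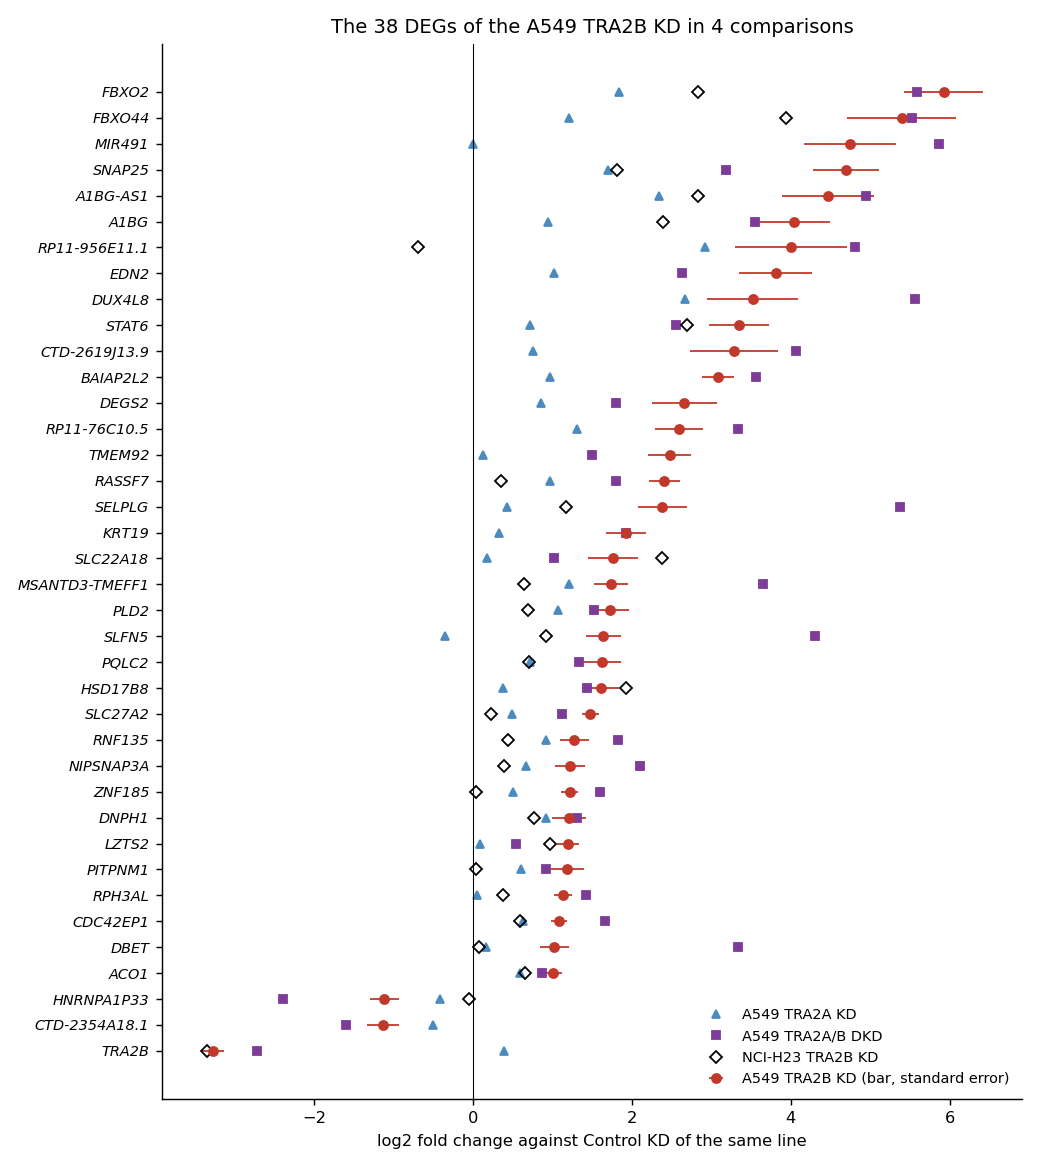
Log2 fold change against the Control KD of the same line for the 38 DEGs of the A549 *TRA2B* KD (red, bar the standard error), beside those in A549 *TRA2A* KD, A549 DKD and NCI-H23 *TRA2B* KD. The A549 comparisons share their controls, the fitted values of *MIR491* and of the clone-named gene at 0 in all controls depend on the pseudocount, and genes without a diamond were below the filter in NCI-H23.

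Besides *TRA2B*, 2 downregulated genes were DEGs. *HNRNPA1P33*, a processed pseudogene of *HNRNPA1*, was at 32.3, 29.0 and 48.5 TPM in Control KD and at 16.7, 12.2 and 18.1 TPM in *TRA2B* KD. *CTD-2354A18.1* was at 32.6, 26.5 and 53.7 TPM and 16.6, 14.5 and 14.9 TPM. In both, Control KD replicate 3 was the highest library, and without it the adjusted p was 0.0579 and 0.0609. *HNRNPA1* itself was at 1249 ± 44.1 TPM and 1068 ± 20.2 TPM (log2 fold change -0.14, adjusted p = 0.530, limma). Reads of the pseudogene and the parent gene may be divided between them by the quantification.

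Among protein-coding genes other than *TRA2B* at 5 TPM or more in Control KD, the 10 of smallest p with a negative fold change were *NLN*, *CTNNAL1*, *NDE1*, *ETV4*, *STAMBPL1*, *FAM98A*, *HACL1*, *RPS6KA5*, *NGLY1* and *PLCB3*, of which the first 7 passed at an adjusted p under 0.05. *NDE1*, a dynein regulator at centrosomes and kinetochores, was at 34.6, 35.9 and 42.2 TPM in Control KD and at 22.3, 22.6 and 19.8 TPM in *TRA2B* KD (log2 fold change -0.70, SE 0.113). *NLN*, a peptidase that cleaves neurotensin, was at 55.8, 50.7 and 82.2 TPM and 32.9, 32.2 and 31.2 TPM (-0.85). *FAM98A* was at 70.5, 85.0 and 71.4 TPM and 39.3, 41.3 and 37.4 TPM (-0.85). In each of these genes the KD libraries lay below all controls, as in 11.9% of all genes. The genes were picked for a small p, so the separation adds no support. *CTNNAL1*, related to alpha-catenin, had -0.59, the deubiquitinase *STAMBPL1* had -0.73, the ETS factor *ETV4* had -0.67 and the peroxisomal lyase *HACL1* had -0.61. *RPS6KA5*, the kinase MSK1, lay just outside the threshold, at 5.26, 3.85 and 7.33 TPM in Control KD and 1.55, 1.70 and 1.92 TPM in *TRA2B* KD (log2 fold change -1.49, adjusted p = 0.05002).

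The 11 genes that rose at an adjusted p under 0.05 by 1 or less on the log2 scale were mostly of moderate or high level. *HMOX1*, heme oxygenase and an NRF2 target, was at 113, 126 and 109.7 TPM in Control KD and at 172, 175 and 174 TPM in *TRA2B* KD (log2 fold change 0.67, adjusted p = 0.0405, limma). *AKR1C1*, an aldo-keto reductase abundant in A549, was at 268, 246 and 316 TPM and 349, 380.2 and 393 TPM (0.53, adjusted p = 0.0492). *IVNS1ABP*, a kelch protein that also acts in splicing, was at 42.8, 44.9 and 54.1 TPM and 71.7, 78.7 and 72.4 TPM (0.75). The remaining ones were *RETSAT*, *TTYH3*, *IKBKG*, *CADM1*, *TNFRSF10C*, *SLC9A3R2*, *THTPA* and *INTS8*, with log2 fold changes from 0.51 (*IKBKG*, the NEMO subunit of the IKK complex) to 0.87 (*TNFRSF10C*, a decoy receptor of TRAIL). Without Control KD replicate 3, *THTPA* (adjusted p = 0.0576) and *INTS8* (adjusted p = 0.0520) no longer passed in limma.

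The splicing factors closest to TRA2B did not change detectably. For the members of gene lists, a pair of values after a gene gives its log2 fold change with all 6 libraries and then without Control KD replicate 3. Over all genes tested, 53.6% had a positive fold change. At an unadjusted p under 0.05, 7.35% of all genes were higher and 6.19% lower in limma. Of 11 SR proteins tested, 0 passed at an adjusted p under 0.05 and 0 at an unadjusted p under 0.05 in limma, and their median log2 fold change was 0.10, beside 0.03 for all genes. *SRSF1* was at 237, 238 and 242 TPM in Control KD and at 212, 209 and 228 TPM in *TRA2B* KD. *SRSF3* was at 388, 364 and 244 TPM and 352, 372 and 332 TPM. *SRSF5* had the largest log2 fold change, 0.71 (SE 0.416), and 0.15 without Control KD replicate 3, where it was at 62.5 TPM. The others ran from *SRSF6* (-0.10 and -0.10) to *SRSF7* (0.41 and 0.07). Of 40 hnRNP proteins and other splicing regulators, 0 passed, with 2 higher and 4 lower at an unadjusted p under 0.05, and a median of -0.04. *U2AF1* (0.78 and 0.55) and *CELF1* (-0.66 and -0.31) were the members of largest fold change. Of 7 SR protein kinases and 19 factors of nonsense-mediated decay, 0 passed in either list in limma. At an unadjusted p under 0.05 the kinase *SRPK1* (-0.46 and -0.38) and the decay factor *SMG6* (-0.69 and -0.34) were lower and *MAGOHB* (0.73 and 0.40) and *UPF3B* (0.56 and 0.19), of the exon junction and decay machinery, were higher, and the kinase *DYRK1A* (0.61 and 0.37) had the largest log2 fold change of its list.

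The 4 genes whose splicing the study followed by RT-PCR did not pass at the gene level. *CHEK1*, the checkpoint kinase, was at 26.6, 23.1 and 24.6 TPM in Control KD and at 26.3, 25.9 and 22.2 TPM in *TRA2B* KD. The centrosomal genes *OFD1* (-0.54, SE 0.296), *CNTRL* (-0.42, SE 0.281) and *CEP192* (0.04, SE 0.254) had wide errors. *OFD1* was at 15.0, 14.2 and 38.6 TPM in Control KD and 11.8, 13.2 and 14.2 TPM in *TRA2B* KD, with Control KD replicate 3 far above the rest. Without that library the 3 log2 fold changes were -0.16, -0.23 and 0.32. Splicing itself was not measured here.

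Cell-cycle and centrosome genes lay slightly below control as lists, with no member past the adjusted threshold. Of 54 G2/M genes, 0 passed in limma, 0 were higher and 15 lower at an unadjusted p under 0.05 (6.19% of all genes were lower by that measure). A negative fold change was seen in 38 of them, as in 7606 of all 16405 genes. The median was -0.19, -0.16 without Control KD replicate 3 and -0.22 with the trend in transcript length and GC content removed. In 24 of them all KD libraries lay below all controls, as in 11.9% of all genes. *TTK*, a spindle checkpoint kinase, was at 16.3, 16.4 and 53.003 TPM in Control KD and at 15.6, 11.8 and 13.3 TPM in *TRA2B* KD, so that its mean of 28.6 ± 21.2 TPM rested on Control KD replicate 3, and its log2 fold change was -0.75 with that library and -0.28 without it. *G2E3*, a ubiquitin ligase of G2/M, had log2 fold changes of -0.74 and -0.31. Kinetochore, spindle and condensin genes (40 tested) had a median of -0.12, -0.18 without that library, with 12 lower and 1 higher at an unadjusted p under 0.05, and after *TTK* the largest log2 fold change was that of the kinesin *KIF14* (-0.63 and -0.38). S phase genes (42 tested) had a median of -0.10, with 9 lower and 1 higher. *MCM4*, of the replicative helicase, was at 70.7, 55.6 and 84.9 TPM and 42.2, 40.1 and 26.7 TPM (log2 fold change -0.87, adjusted p = 0.2999), and *UHRF1*, a reader of DNA methylation, had -0.70 and -0.34. Of 33 centrosome and centriole genes, 29 had a negative fold change and 5 were lower at an unadjusted p under 0.05, with a median of -0.23 that came to -0.10 without Control KD replicate 3. *CEP350* (-0.67 and -0.25) and *CEP250* (-0.54 and -0.31) had the largest. Repair genes (33 tested) had a median of -0.12 and -0.02 without it, with 6 lower and 1 higher, and with *FANCB* (1.76 and 0.71) and *CHEK2* (0.96 and -0.02) of largest log2 fold change.

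Stress and signaling lists had positive medians of small size, again with few calls, and the NRF2 and AP-1 medians turned negative without Control KD replicate 3, the NRF2 median also with TPM as deposited, with quantile normalization, with array weights and with the length and GC trend removed. Of 25 p53 targets, 19 had a positive fold change and 0 passed, with 9 higher and 1 lower at an unadjusted p under 0.05, where 7.35% of all genes were higher. Their median was 0.22, and 0.13 without Control KD replicate 3. *GADD45A* (0.68 and 0.29) and *PMAIP1* (0.60 and 0.32) had the largest fold changes. Of 30 genes of the ATF4 response, 8 were higher and 1 lower by the same measure, and their median of 0.20 came to 0.02 without Control KD replicate 3 and to 0.02 with the length and GC trend removed. They had the largest fold changes in *CEBPB*, a transcription factor that went from 43.3, 51.1 and 29.3 TPM to 84.4, 82.8 and 82.9 TPM (log2 fold change 1.14, adjusted p = 0.0615, limma), and *DDIT3* (1.11 and 0.73). Without Control KD replicate 3, *CEBPB* passed, with a log2 fold change of 0.82 and an adjusted p of 0.00294 (limma), as did the p53 target *CCNG1* (0.45, adjusted p = 0.0249). The NRF2 list (28 tested) had 2 members that rose, *HMOX1* and *AKR1C1*, and none that fell, in limma, with a median of 0.06 and -0.03 without Control KD replicate 3, and *GCLC*, of glutathione synthesis, (-0.73 and -0.41) did not pass. AP-1 and immediate early genes had 5 higher and 3 lower of 28, with *EGR1* (1.14 and 0.96) and *KLF2* (-0.75 and -0.79) of largest fold change, and neither passed, and their median was 0.14 and -0.02 without that library. For inflammatory cytokines and NF-kB targets (20), interferon-stimulated genes (27) and the BCL2 family (14) the medians were 0.40, 0.10 and 0.14, and 0.10, 0.05 and 0.06 without Control KD replicate 3. At an unadjusted p under 0.05 these held 5, 4 and 1 higher genes and 0 lower ones, and their largest fold changes were those of *IL6* (0.883 ± 1.502 TPM in Control KD, 2.12 ± 0.227 TPM in *TRA2B* KD), *OASL* (0.501 ± 0.275 TPM and 1.48 ± 0.139 TPM) and *BIK* (0.544 ± 0.541 TPM and 1.08 ± 0.235 TPM). Their log2 fold changes were 2.77, 1.58 and 1.47, and 1.88, 1.10 and 0.41 without Control KD replicate 3. The next in each list were *CXCL3* (1.97 and 0.28), *IFI44* (1.52 and 0.28) and *PMAIP1*.

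Metabolic and structural lists showed no calls with all 6 libraries. Sterol and fatty acid synthesis genes (32 tested) had a median of -0.08, with 6 lower and 2 higher at an unadjusted p under 0.05, among them *HSD17B7* (0.58 and 0.43), and *FASN*, fatty acid synthase, was at 240.2, 245 and 238 TPM in Control KD and 159, 152 and 129.7 TPM in *TRA2B* KD (log2 fold change -0.63, adjusted p = 0.0804, limma). Without Control KD replicate 3, *FASN* passed, with a log2 fold change of -0.73 and an adjusted p of 0.0216 (limma). HIF targets (22), heat shock proteins (18), ribosome biogenesis genes (26) and matrix genes (32) had medians between -0.07 and 0.05. At an unadjusted p under 0.05 these lists held 2, 1, 0 and 2 higher and 2, 0, 3 and 6 lower genes. The largest log2 fold changes were those of *CA9* (1.13 and -0.27) and *ADM* (0.62 and 0.30) among HIF targets, *HSPB8* (0.43 and 0.33) and *HSPE1* (0.43 and 0.12) among heat shock proteins, *NOP56* (0.61 and 0.11) and *PPAN* (0.45 and 0.09) in ribosome biogenesis, and *MMP14* (1.28 and 0.58) and *TWIST1* (0.78 and 0.57) in the matrix list. Replication-dependent histone genes, of which 17 of 32 passed the filter, had a median of 0.09 and 0.35 without Control KD replicate 3, with 6 higher and 0 lower at an unadjusted p under 0.05 and *HIST1H3B* (2.17 and 0.75) and *HIST1H4H* (1.47 and 1.00) of largest log2 fold change.

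The medians of ribosomal protein, respiratory chain and snoRNA host genes moved with Control KD replicate 3. Of 79 cytosolic ribosomal protein genes, with a median transcript length of 785 bases, 78 had a positive fold change, where 53.6% of all genes did. Their median was 0.32. The median came to 0.06 without Control KD replicate 3 and to 0.03 after removal of the length and GC trend, and 0 passed. At an unadjusted p under 0.05, 15 were higher and 1 lower, where 7.35% and 6.19% of all genes were. Nuclear-encoded respiratory chain genes (40 tested) had medians of 0.30, 0.03 and 0.19 in the same order, with 10 higher and 0 lower by that measure and *COX6C* (1.02 and 0.48) and *NDUFB3* (0.95 and 0.39) of largest fold change. *RPS27* (1.51 and 0.44) and *RPL36A* (0.79 and 0.26) were those of the ribosomal proteins. The 14 snoRNA host genes, whose spliced RNA is degraded by nonsense-mediated decay, had a median transcript length of 2036 bases, beside 3048 for all genes. Their median log2 fold changes were 0.65, 0.15 and 0.54 in the same order, with 3 higher and 0 lower. *EPB41L4A-AS1* (1.42 and 0.43) and *SNHG8* (1.52 and 0.70) had the largest fold changes, and their transcripts are longer, at 3511 and 6166 bases. *SNHG8* was at 51.0, 82.2 and 14.0 TPM in Control KD and at 131, 109 and 81.0 TPM in *TRA2B* KD, with Control KD replicate 3 the lowest library. Over all genes, the fifth with the shortest transcripts (median 816 bases) had a median log2 fold change of 0.30 and the fifth with the longest (7333 bases) -0.19, and without that library these were 0.05 and -0.04. Mitochondrially encoded mRNAs (13) had a median of 0.02, -0.10 without it, and ran from *MT-ATP8* (-0.39 and -0.99) to *MT-ND3* (0.59 and 0.13), with 0 under an unadjusted p of 0.05 in limma.

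**Figure D5:**
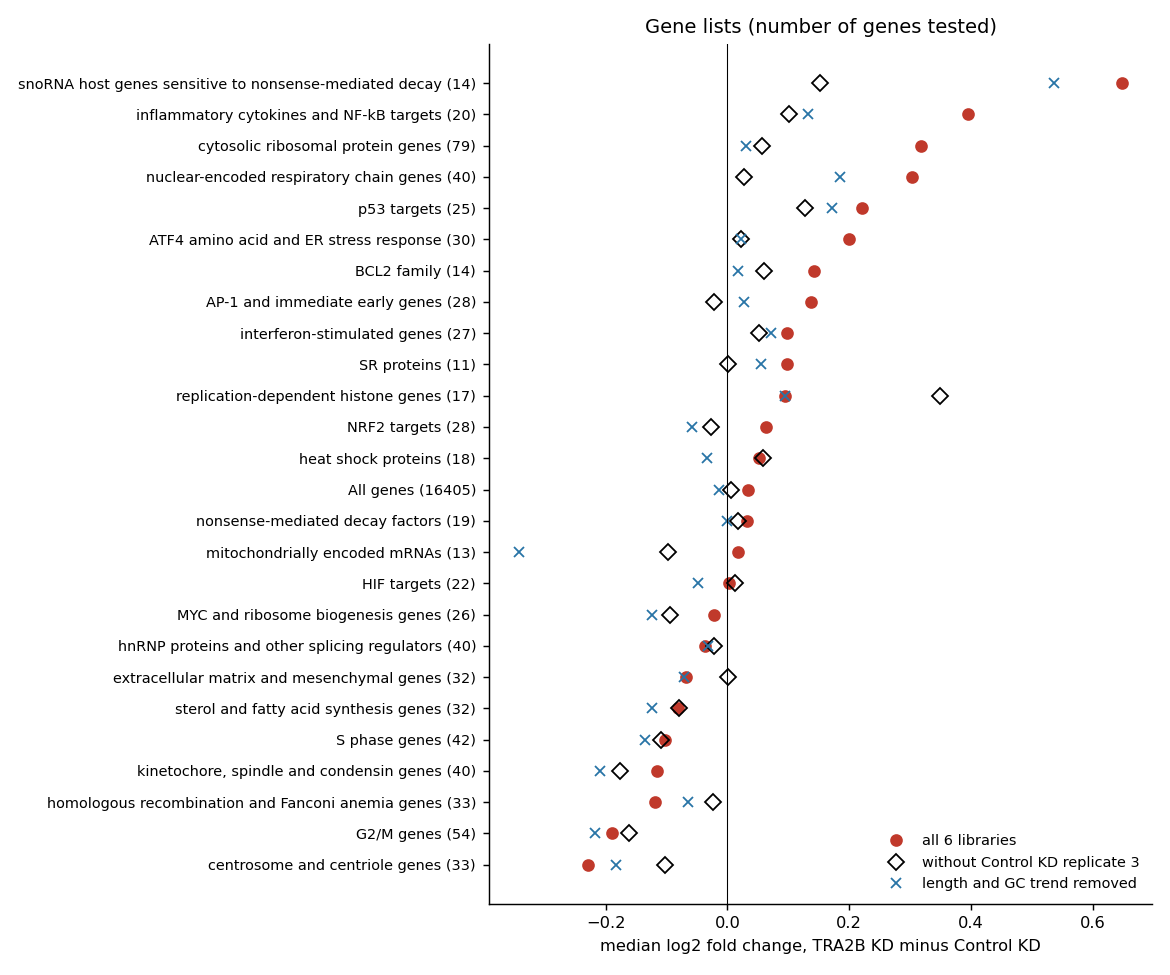
Median log2 fold change (TRA2B KD minus Control KD) of each gene list with 10 or more genes tested, with all 6 libraries (red), without Control KD replicate 3 (open diamonds) and with the length and GC trend removed (crosses). All genes together have 0.03, the ribosomal protein genes move from 0.32 to 0.06 without that library, and the G2/M genes lie between -0.22 and -0.16.

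*TRA2B* KD differed directly from *TRA2A* KD in 64 genes (0.390%), *TRA2A* and *TRA2B* left out, of which 62 were higher in *TRA2B* KD and 2 lower. This contrast holds no control library, but it shares the *TRA2B* KD libraries with the comparison above and is no independent evidence for the same genes. *STAT6* was at 10.6, 9.47 and 8.10 TPM in *TRA2A* KD, a log2 difference of 2.63 (SE 0.376, adjusted p = 0.00928, limma). *FBXO44* was at 0.733, 1.11 and 1.58 TPM (log2 difference 4.18, adjusted p = 0.0203), *SNAP25* at 1.62, 1.28 and 3.44 TPM (3.00, adjusted p = 0.00844) and *A1BG* at 1.65, 1.36 and 3.32 TPM (3.10, adjusted p = 0.00928). All *TRA2A* KD libraries lay below all *TRA2B* KD libraries in these 4 genes. These were picked as DEGs of both contrasts, and the share of all genes so separated was not counted, so the separation adds no support. Of the 37 A549 DEGs other than *TRA2B*, 17 (45.9%) were DEGs of this contrast, all higher in *TRA2B* KD. Among those that did not differ at an adjusted p under 0.05 were *A1BG-AS1*, *RNF135*, *ACO1* and *DNPH1*. Their log2 differences were 2.13 (SE 0.584), 0.35 (SE 0.182), 0.42 (SE 0.109) and 0.28 (SE 0.211). Against the shared controls, 33 of the 35 upregulated DEGs also had a positive fold change in *TRA2A* KD. Their median there was 0.72, beside 0.03 for all genes.

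With *TRA2A* lost as well, 1416 genes (8.63%) differed between DKD and *TRA2B* KD, 734 higher and 682 lower, again over the same *TRA2B* KD libraries. *SELPLG*, the ligand of P-selectin, was at 0.345, 0.342 and 0.567 TPM in Control KD, 2.29, 2.94 and 2.05 TPM in *TRA2B* KD and 23.4, 22.3 and 20.8 TPM in DKD, a further log2 difference of 2.99 (SE 0.313, adjusted p = 7.13e-05, limma). *SLFN5*, a Schlafen family protein, was at 0.822, 1.22 and 1.40 TPM, 2.91, 3.59 and 4.06 TPM and 26.9, 24.6 and 24.7 TPM (2.66, adjusted p = 1.500e-05). In *TRA2A* KD they were at 0.781, 0.536 and 0.338 TPM and 0.806, 0.755 and 0.748 TPM. *MSANTD3-TMEFF1*, *DBET* and *DUX4L8* were also higher in DKD. *SNAP25* went the other way, to 6.44, 5.46 and 7.98 TPM in DKD (log2 difference -1.51, SE 0.414, adjusted p = 0.0224), between Control KD and *TRA2B* KD. For *FBXO44*, *FBXO2* and *A1BG* the difference between DKD and *TRA2B* KD was 0.13 (SE 0.682), -0.34 (SE 0.498) and -0.50 (SE 0.443) and did not pass. *TRA2B* itself was at 24.9, 16.9 and 25.4 TPM in DKD, higher than in *TRA2B* KD by 0.56 on the log2 scale (adjusted p = 0.0179).

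The A549 DEGs were also measured after *TRA2B* KO in the glioma lines. The lines differ from A549 in tissue, in the use of active Cas9 and in the day of collection, which cannot be told apart, and *TRA2B* RNA fell by 0.64 on the log2 scale in LN229 and by 1.61 in LN319. Of the 37 A549 DEGs other than *TRA2B*, 26 were tested in LN229, with 6 higher and 3 lower at an unadjusted p under 0.05. In LN319, 29 were tested, with 13 higher and 7 lower by that measure. The share of all genes past that unadjusted threshold was not counted in these lines, so these counts have no baseline. By the DEG rule, 0 passed in LN229 in limma, where 0.135% of all genes did, and 5 passed in LN319, where 3.91% of all genes did. The 5 were *SELPLG* (1.57), *CDC42EP1* (1.43), the clone-named gene at 0 in the A549 controls (1.33) and *SLC22A18* (1.20), which rose, and *KRT19* (-1.35), which fell. *STAT6* had log2 fold changes of 0.32 in LN229 and 0.69 in LN319, *FBXO44* of 0.63 and 0.49, and *SNAP25* of 0.51 and 0.50, each below 1 in size. Of these, *FBXO44* in LN319 (adjusted p = 5.79e-04), *STAT6* in LN319 (adjusted p = 0.0387) and *SNAP25* in LN229 (adjusted p = 0.0323) passed at an adjusted p under 0.05 in limma, short of the fold change of a DEG.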

How the data were processed

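RNA-seq libraries were prepared from poly(A) RNA with a directional dUTP protocol and sequenced as 150-bp pairs. Per the study's methods and the submitters' processing notes, the authors quantified transcripts with kallisto 0.48.0 on Gencode v34 (GRCh38), and STAR 2.7.3 was also named. The authors deposited gene-level TPM, 1 table per cell line. TPM keep no depth, so the depth behind each value is unknown, and the authors' limma-voom fit, which needs counts, could not be repeated. The deposited TPM of the A549 libraries summed to 928908 to 955559.

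Genes at 1 TPM or more in at least 4 of the 12 libraries were kept. Scaling between libraries used an unweighted trimmed mean (30% of ratios and 5% of abundances trimmed), and log2(TPM + 0.1) was fitted with limma 3.58.1 in R 4.3.3, with a mean-variance trend, over all 12 A549 libraries in 4 groups. P-values were two-sided and adjusted over all genes kept (Benjamini-Hochberg). DEGs were past a log2 fold change of 1 in size at an adjusted p below 0.05. Each other line was fitted in its own table. Of 15182 genes in simulated data for this comparison, 200 were changed 4-fold, of which 159 were recovered, with 4 false calls. In the real libraries the DEG count ran from 6 to 412 with the fit. The simulated rates therefore need not hold for the DEGs called here.

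The members and the 32 gene lists were chosen with earlier results of these data known. Genes named were *TRA2A*, *TRA2B*, all DEGs, genes that start within 500 kb of *TRA2B*, SR proteins, RT-PCR targets, the 10 protein-coding genes of smallest p that were lower and at 5 TPM or more in Control KD, and, per list, members past an adjusted p of 0.05 and the 2 of largest fold change; genes next to a DEG (within 10 kb), *HNRNPA1*, *UPF3B* and marker genes were named in addition, after their values were seen. Names in the form of a date (28 in the table) were left out. Gene positions came from Gencode v44 and RefSeq, both on GRCh38, and 33731 of 55906 names matched by symbol. Transcript lengths were known for 13402 of the 16405 genes and 33 of the 38 DEGs. Alternatives changed the pseudocount, filter, scaling, libraries in the fit, block, weights, moderation and length trend, and left out each library in turn.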

Additional observations from a re-analysis of the deposited data

Results flagged for a closer look

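*RPS6KA5*, which encodes the kinase MSK1, had a negative log2 fold change in A549 and a positive one in NCI-H23. In A549 it was at 5.26, 3.85 and 7.33 TPM in Control KD and at 1.55, 1.70 and 1.92 TPM in *TRA2B* KD, a log2 fold change of -1.49 (SE 0.266, adjusted p = 0.05002, limma). In NCI-H23 it was at 1.54, 1.08 and 1.13 TPM in Control KD and at 1.63, 2.09 and 1.77 TPM in *TRA2B* KD, a log2 fold change of 0.42 (SE 0.304, adjusted p = 0.658). Every *TRA2B* KD library lay below every control in A549 and above every control in NCI-H23. The gene was flagged, among the genes named, because of this separation, so the separation adds no support. In A549 the KD libraries lay below all controls in 11.9% of all genes. In the A549 DKD *RPS6KA5* was at 5.55, 5.24 and 5.55 TPM, a log2 fold change of -0.04 against Control KD. The difference between the lines was not tested.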

How the results depend on the processing

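The number of DEGs in *TRA2B* KD, 38, was 28 to 39 under another pseudocount, filter, scaling, moderation or the length and GC correction, but 6 with no libraries beyond both groups in the fit, 412 with array weights (310 up, 102 down) and 20 to 67 with 1 library left out. Leaving out Control KD replicate 1, 2 or 3 gave 41, 67 or 43, and leaving out *TRA2B* KD replicate 1, 2 or 3 gave 21, 20 or 24. Without Control KD replicate 3, *ACO1*, *CDC42EP1*, *CTD-2354A18.1*, *DNPH1*, *HNRNPA1P33*, *SLC22A18* and the clone-named gene at 0 in all controls were lost and 12 genes gained. DEGs called in both lung lines, 8, were 2 with no libraries beyond both groups and 6 to 10 with 1 A549 library left out. The NCI-H23 DEGs were held at those of the main fit in these counts. *TRA2B* ran from -3.38 to -3.19 and *TRA2A* from 0.23 to 0.54 on the log2 scale. DEGs between *TRA2B* KD and *TRA2A* KD, 64, were 282 with array weights, 130 with no minimum fold change and 22 to 49 with 1 library left out. DEGs between DKD and *TRA2B* KD, 1416, were 3903 with no minimum fold change and 1139 to 1240 with 1 library left out. Their split of 734 higher and 682 lower became 999 and 433 with TPM as deposited, 794 and 915 with quantile normalization, 1142 and 749 with no filter, and 1142 and 764 with only those groups. DEGs in NCI-H23, 18, were 7 to 21 with 1 library left out. Of the 55 called genes besides *TRA2B*, 4 kept their call under every setting and 0 reversed, and 16 of 79 uncalled named genes changed sign under some setting. Same-numbered control and *TRA2B* KD libraries correlated at 0.032, 0.066 and 0.080 in their deviations from the group means, too little to pair them. Every library correlated best with its own number, which is a hint from the data and not from the design. With the replicate block, the DEG counts were 34 in *TRA2B* KD, 36 between *TRA2B* KD and *TRA2A* KD, 1370 between DKD and *TRA2B* KD and 9 in NCI-H23. The cause of these shifts was not tested. TPM without depth set no limit for genes listed at 0.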
